A study of Mus musculus with 4 samples.

Results

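Untransfected miR-26a knockout cells were compared with untransfected wild-type cells across all 16416 genes of the deposited table, with 1 RNA-seq library on each side. The cells were synovial fibroblasts that had grown out of the shoulder joint capsule of mice at 1 week from immobilization, and they were kept in medium with fetal bovine serum to passage 2. The wild-type cells came from C57BL6/J mice. The knockout cells came from mice of the genotype miR-26a -/-, for which the labels give no strain, and the labels give neither the number of mice nor their age for either group. The immobilization was shared by both groups. The remaining 2 libraries of the series were knockout cells transfected for 24 h at 10 nM, with Silencer Negative Control or with a mimic of miR-26a made of double-stranded RNA, and they are used only to show whether a level in the untransfected knockout cells was also found in other knockout libraries. All 3 knockout libraries are set against the same wild-type library, so their differences from it are not independent. Because there was 1 library a group, no difference has a replicate check and no p-value is given.

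MicroRNAs guide a silencing complex to messenger RNAs by pairing of their seed with sites that lie mostly in the 3' untranslated region, which lowers the stability or translation of the target. MiR-26a is made from a pair of hairpins in introns of the phosphatase genes Ctdspl and Ctdsp2, and its close relative miR-26b comes from an intron of Ctdsp1. Fibroblasts of the joint capsule and its synovial lining deposit collagen, elastic fibres and proteoglycans and remodel them with secreted proteases, and frozen shoulder is a fibrotic thickening of this capsule. Cultures grown out of such tissue can also carry macrophages, adipocytes, Schwann cells and muscle cells of the explant.

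The mature sequences are shown because they define the sites searched in the transcripts. MiR-26a and its relative miR-26b have the same seed, bases 2 to 8, here in capitals (RefSeq, GRCm38.p6, 5' to 3').
miR-26a-5p: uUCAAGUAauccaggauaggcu
miR-26b-5p: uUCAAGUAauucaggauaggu
The DNA complement of that seed is TACTTGA. Among measured genes, the median log2 ratio of knockout to wild type was 0.02 for 11115 genes with no such site in the 3' untranslated region, -0.01 for 1329 genes with 1 site and -0.05 for 187 genes with more sites. For 654 genes whose site was followed by A, an 8-base match, it was -0.01. Genes with a site have longer untranslated regions, so genes were also split by that length into 5 groups of equal size. From the shortest to the longest group the medians were 0.15, 0.04, 0.00, -0.05 and -0.08 without a site and 0.25, 0.05, 0.02, 0.00 and -0.06 with one, so that within each group the genes with a site lay 0.10 or less above those without.

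The hairpins of miR-26a lie at chr9:119031796-119031885 (Mir26a-1) and chr10:126995530-126995613 (Mir26a-2) of GRCm38.p6, both on the plus strand. The genotype label, miR-26a -/-, does not name a hairpin. The microRNA itself was not measured. The host transcript Ctdspl had 12.6, 11.8, 12.3 and 12.4 TPM in the wild-type, untransfected knockout, negative-control and mimic libraries. Ctdsp2 had 185, 98.2, 102 and 83.3 TPM in the same order, lower in all 3 knockout libraries, with a log2 ratio of -0.77 (-0.82 to -0.71) in the untransfected comparison. Within 1 Mb of Mir26a-1 all 16 measured genes differed less than 2-fold. Within 1 Mb of Mir26a-2, 32 genes were measured. There Avil, which encodes the actin-severing protein advillin and starts 4 kb beyond the hairpin, had 0.49, 1.77, 3.36 and 2.4 TPM in the 4 libraries, with a log2 ratio of 1.93 (1.08 to 3.06). Arhgap9, a GTPase-activating protein of blood cells, stood at 37.6 against 18.4 TPM (knockout against wild type), Agap2 at 1.13 against 0.51 TPM (not called with a prior count of 5), and Slc26a10 was lower at 0.21 against 1.03 TPM.

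A gene was measured if it reached 1 CPM, a count scaled to the size of its library, in either library, which held for 12803 genes, and lists are counted over their measured members. Levels are given in TPM, which also account for transcript length. Differences are log2 ratios of scaled counts, knockout to wild type, each followed by a 95% exact binomial interval that covers counting error only, and values set side by side follow the order wild type, untransfected knockout, negative control and mimic unless another order is given. A gene was counted as higher or lower if it differed at least 2-fold and its interval excluded 0. By this rule 757 genes (5.91% of those measured) were higher and 896 (7%) were lower in the knockout library. These 2 shares, taken over genes of all levels, are the background for the counts of every gene list. The median of all measured genes was 0.01, the middle 50% lay between -0.29 and 0.29, and the middle 90% between -1.22 and 1.11. At least 4-fold differences were seen for 144 genes upward and 235 downward, and at least 16-fold differences for 14 and 26. The lists were drawn up by function, but with earlier results of these data known. A share above or below the background is therefore not independent of the choice of list. They are described by their counts and medians, without a test.

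The libraries held 17598763 to 19392655 estimated counts, and 15150 to 15370 genes had a count above 0. Genes of low level were called most often. Below 5 TPM, 10.7% of 2178 genes were higher and 18.3% lower, whereas from 20 to 100 TPM the shares were 3.98% and 3.41% of 5074 genes. For a list of mostly scarce genes the background over all levels is therefore lower than that of genes at a like level. Fibroblast genes were abundant in every library, with Col1a1 at 5821 and 2779.6 TPM in the wild-type and knockout libraries, and so were macrophage genes, with Lyz2, the lysozyme of macrophages, at 14913 and 18991 TPM. The 22 macrophage identity genes summed to 24243, 35905, 34679 and 34592 TPM in the wild-type, untransfected knockout, negative-control and mimic libraries, and the 16 measured fibroblast identity genes to 20817, 15646, 13874 and 15483 TPM. None of the listed markers of T, NK and B cells and of red cells reached the level at which a gene was measured, and of 5 measured markers of endothelial cells 1 was higher and 2 were lower. The Y-linked genes Ddx3y, Eif2s3y, Uty and Kdm5d were present in all 4 libraries, between 11.5 and 66.5 TPM in the knockout and between 12 and 58.2 TPM in the wild-type library. Nnt, in which C57BL/6J stocks carry a deletion, was at 20.6, 20.7, 22.8 and 19.2 TPM, and values per gene do not show which exons are present. In bulk RNA, a change in the number of cells of a type and a change in RNA per cell cannot be told apart, and this holds for each program described here. The part of the cell mixture in these differences was not tested.

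**Figure D1:**
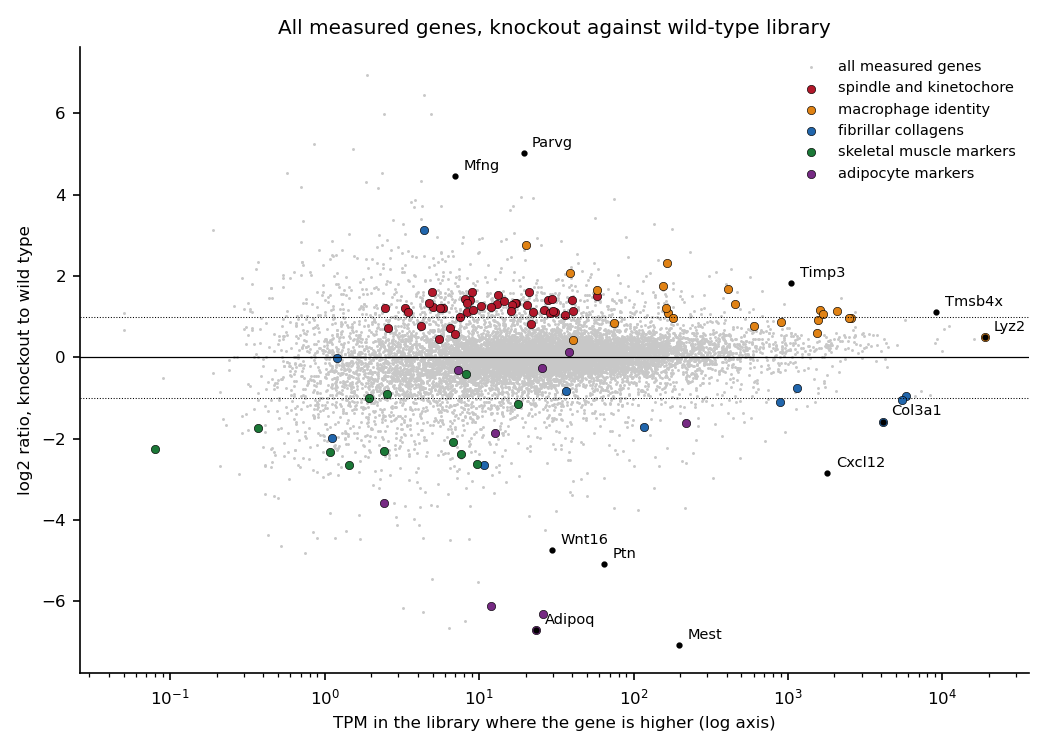
Each point is a measured gene, with the TPM of the library in which it is higher on a log axis and the log2 ratio of knockout to wild type on the vertical axis, and coloured points are members of 5 lists. Spindle and kinetochore genes lie in a band above 0 with a median of 1.22, macrophage identity genes are all above 0, and 10 of 11 fibrillar collagens are below 0; dotted lines mark 2-fold.

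Genes that act in mitosis were higher in the knockout library nearly as a block. Of 43 genes of the spindle and kinetochore, the machinery that attaches and separates chromosomes, 37 were higher and none lower, all 43 were above 0, and the ratios lay in a narrow band from 0.46 to 1.60 around a median of 1.22. Their TPM summed to 318, 684, 691 and 615 TPM in the wild-type, untransfected knockout, negative-control and mimic libraries. Birc5, a subunit of the chromosomal passenger complex, had 22.9 TPM in wild-type cells against 57.8 TPM in untransfected, 62.1 TPM in negative-control and 48.9 TPM in mimic-transfected knockout cells. Its log2 ratio was 1.5 (1.24 to 1.78), and all 3 knockout libraries lay above the wild type. Aurkb, the kinase of the same complex, stood at 21 against 7.55 TPM with a log2 ratio of 1.60 (1.30 to 1.93). Bub1, a checkpoint kinase, had 8.95 against 3.22 TPM, and Cenpa, the histone H3 variant of centromeres, 40.2 against 16 TPM. Among 16 mitotic cyclins and regulators 10 were higher, with a median of 1.11. Ccnb1, cyclin B1, had 11, 29.6, 29.2 and 23.5 TPM in the 4 libraries, with a log2 ratio of 1.56 (1.33 to 1.80), and Ube2c, the ubiquitin-conjugating enzyme of the anaphase-promoting complex, 23.9, 61.1, 63.5 and 53.4 TPM. Pttg1, which encodes securin, differed from its list, at 45.7 against 48.8 TPM and a log2 ratio of 0.09 (-0.18 to 0.36).

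Most lists of genes that act earlier in the cell cycle had smaller medians, and that of homologous recombination and Fanconi repair was the exception. Of 34 genes of replication origins and forks 11 were higher and all 34 lay above 0, with a median of 0.73. Mcm5, a subunit of the replicative helicase, had 32.7 against 13 TPM and a log2 ratio of 1.46 (1.29 to 1.64), and Pcna, the sliding clamp, 366 against 199 TPM and 1.02 (0.94 to 1.10). In homologous recombination and Fanconi repair, 9 of 16 genes were higher, among them Brca1 at 5.67 against 2.13 TPM. The median of that list was 1.22, the same as for spindle and kinetochore genes. For nucleotide synthesis 4 of 14 genes were higher, including both subunits of ribonucleotide reductase, Rrm1 (log2 ratio 1.15, 1.06 to 1.24) and Rrm2 (log2 ratio 1.53, 1.34 to 1.72), and thymidine kinase Tk1 (log2 ratio 1.39, 1.12 to 1.67). The purine enzymes Paics, Atic and Impdh2, which are more abundant, lay between 0.08 and 0.29. Of the regulators E2F, DREAM and FoxM1 only 3 of 19 were higher, namely E2f8 (log2 ratio 1.88, 1.54 to 2.25), E2f2 (log2 ratio 1.22, 0.91 to 1.56) and Mybl2 (log2 ratio 1.22, 0.87 to 1.59), while Foxm1 itself stood at 14.3 against 8.26 TPM and 0.92 (0.72 to 1.13).

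The G1 cyclins and the inhibitors of the cycle did not show the same shift. Of 9 G1 cyclins and kinases only Ccne2, cyclin E2, was higher (log2 ratio 1.14, 0.85 to 1.44). Ccnd1, cyclin D1, had 269, 365, 426 and 455 TPM in the 4 libraries, a log2 ratio of 0.57 (0.53 to 0.61), whereas Cdk4 had 400.0, 306, 335 and 329 TPM and -0.25 (-0.31 to -0.18). None of 7 CDK inhibitors differed 2-fold. Cdkn1a, which encodes p21, had 723, 669, 652 and 704 TPM with a ratio of 0.02 (-0.02 to 0.06), and Cdkn2a, the locus of p16 and p19, 189.5, 196, 173 and 171 TPM. None of 18 p53 target genes was counted as higher or lower, with a median of -0.15. The lowest of them was Gadd45a, a stress-response gene, at 86.3 against 189.8 TPM and -1.0 (-1.12 to -0.88), just short of 2-fold. Macrophage markers were higher in the same library (12 of 22 identity genes), and whether the dividing cells were fibroblasts or macrophages was not tested.

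Promoters of mitotic genes are shown because the members were higher together and carry known cell-cycle motifs. The cell cycle homology region CHR (TTTGAA) is read by the DREAM complex and the CCAAT box by NF-Y. Windows from 250 bases before to 50 after the start of transcription were searched on both strands, with RefSeq sequences of GRCm38.p6 for 10230 measured genes. CHR letters were present in 26 of 38 spindle and kinetochore promoters (68.4%), against 14.3% of all promoters, and CCAAT in 71.1% against 43.2%. Both together were in 52.6% against 7.19%. Among mitotic cyclins and regulators CHR was in 6 of 12 promoters and CCAAT in 11 of 12. The E2F motif TTTCCCGC was in 6 of 26 replication promoters (23.1%) against 2.36% of all, and in none of the 38 spindle and kinetochore promoters. A match describes letters only. The motifs do not overlap each other in the windows shown, and capitals mark both motifs on either strand.
Plk1 (chr7:122159185-122159484, plus strand): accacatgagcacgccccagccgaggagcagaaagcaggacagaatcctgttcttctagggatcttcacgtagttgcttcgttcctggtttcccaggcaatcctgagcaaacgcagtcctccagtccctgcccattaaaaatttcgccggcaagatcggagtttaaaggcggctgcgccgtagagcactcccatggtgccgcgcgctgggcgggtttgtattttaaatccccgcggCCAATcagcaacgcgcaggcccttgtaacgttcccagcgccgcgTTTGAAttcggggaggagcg
Cdc20 (chr4:118437294-118437593, minus strand): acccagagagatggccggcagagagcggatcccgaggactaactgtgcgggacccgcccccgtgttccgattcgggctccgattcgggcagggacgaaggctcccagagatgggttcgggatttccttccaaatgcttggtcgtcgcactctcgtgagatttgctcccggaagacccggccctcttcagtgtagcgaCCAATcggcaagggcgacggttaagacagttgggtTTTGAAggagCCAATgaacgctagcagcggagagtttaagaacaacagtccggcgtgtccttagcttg
Plk1, a mitotic kinase, was named for its promoter after its values were seen. It had 11.4, 27.8, 26.6 and 24 TPM in the wild-type, untransfected knockout, negative-control and mimic libraries, a log2 ratio of 1.41 (1.18 to 1.66). Cdc20, the activator of the anaphase-promoting complex, had 18.5, 34.3, 31.4 and 26.1 TPM, a log2 ratio of 1.02 (0.80 to 1.25). In both genes the 3 knockout libraries were all above the wild type.

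**Figure D2:**
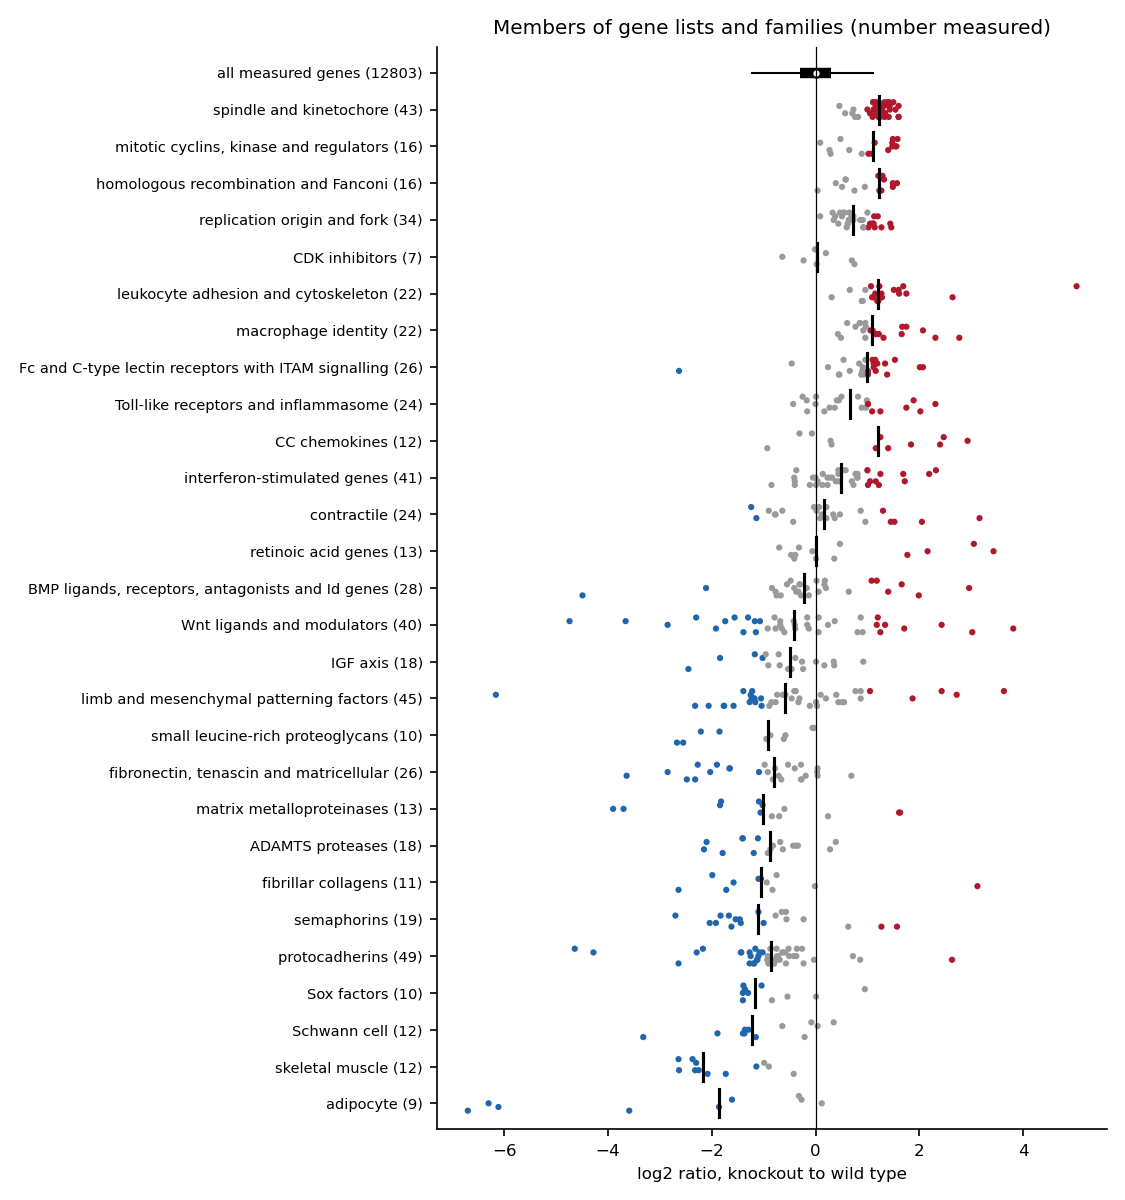
Each row is a gene list or family with the number of measured members, each point a member's log2 ratio of knockout to wild type, red if counted as higher, blue if lower and grey otherwise, and each bar the median. The top row gives all measured genes, with a thick line for the middle 50% and a thin line for the middle 90%. Cell division and myeloid lists lie to the right of the all-gene median of 0.01, and matrix, semaphorin, protocadherin, Sox, Schwann, muscle and adipocyte lists to its left.

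Genes of macrophages were higher in knockout cells, but by very different amounts. All 22 macrophage identity genes lay above 0 and 12 were counted as higher, with a median of 1.08. Lyz2, the most abundant one, had 14913, 18991, 17286 and 17807 TPM, a log2 ratio of 0.49 (0.48 to 0.50). C1qa, C1qb and C1qc, the chains of complement C1q, were near 2-fold with log2 ratios of 1.06, 0.97 and 0.96. Csf1r, the receptor for the macrophage growth factors CSF1 and IL-34, had 141 TPM in wild-type cells against 408 TPM in untransfected, 441 TPM in negative-control and 425 TPM in mimic-transfected knockout cells, a log2 ratio of 1.67 (1.62 to 1.72). Cx3cr1, the fractalkine receptor of monocytes and some tissue macrophages, had 3.17, 20.2, 23.6 and 26.6 TPM, a log2 ratio of 2.77 (2.47 to 3.10), and Cd14, a co-receptor for lipopolysaccharide, 36.4, 165, 156 and 208 TPM and 2.31 (2.17 to 2.47). The ratios therefore ranged from 0.43 to 2.77 within a list of genes that share a cell type. The PU.1 motif GAGGAAGT was in 3 of 16 macrophage promoters, against 3.69% of all.

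Genes of leukocyte adhesion and of the leukocyte cytoskeleton were higher for 17 of 22, with all 22 above 0 and a median of 1.21. Parvg (Entrez Gene 64099), gamma-parvin, which links integrins to actin in blood cells, had 0.61 TPM in wild-type cells against 19.5 TPM in untransfected, 21.3 TPM in negative-control and 17.9 TPM in mimic-transfected knockout cells. Its log2 ratio of 5.03 (4.34 to 6.05) was the largest upward one among genes of at least 5 TPM. Itgal, the alpha chain of the integrin LFA-1, had 3.52, 19.6, 18.7 and 12 TPM and a ratio of 2.64 (2.39 to 2.90), and Itgam, the alpha chain of CR3, 50.6, 155, 166 and 163 TPM and 1.75 (1.67 to 1.82). Their shared beta chain Itgb2 was at 273 against 142 TPM, a ratio of 1.07 (1.01 to 1.13), smaller than that of either alpha chain. Coro1a, Hcls1 and Lcp1, actin-binding proteins of leukocytes, had log2 ratios of 1.61, 1.69 and 1.2. Tmsb4x, thymosin beta 4, which binds actin monomers and is made by most cells, was the most abundant gene counted as higher, at 4715, 9118, 9378 and 8919 TPM in the 4 libraries.

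Immune receptors of the Fc, C-type lectin and ITAM group were higher for 13 of 26 measured genes and lower for 1. Fcgr1, the high-affinity IgG receptor, had 39.1 against 10.1 TPM and 2.07 (1.86 to 2.30), and Clec4e, the lectin receptor Mincle, 5.84 against 1.55 TPM and 2.01 (1.47 to 2.66). The adaptors Tyrobp and Fcer1g, which carry the ITAM signal, were at 2072 against 1049.6 TPM and 1609 against 803 TPM. The exception was Fgr, a Src-family kinase of myeloid cells, with 0.15 against 1.23 TPM. Of 24 Toll-like receptor and inflammasome genes 8 were higher and none lower, including Tlr13, a sensor of bacterial ribosomal RNA, at 156 against 71.9 TPM, Tlr9 at 4.5 against 1.3 TPM and the inflammasome adaptor Pycard at 18.4 against 5.95 TPM. All 6 NADPH oxidase genes were above 0 and 3 were higher, with Ncf4 at 1.63 (1.41 to 1.86) and the catalytic subunit Cybb at 0.74 (0.68 to 0.81).

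Of 9 measured chemokine receptors 4 were higher and 1 lower, and of 15 CSF and interleukin receptor genes of myeloid cells 6 were higher and 2 lower. Ccr1, a receptor for CCL3, CCL5 and related chemokines, had 1.58 TPM in wild-type cells against 22.3 TPM in untransfected, 27.4 TPM in negative-control and 25.2 TPM in mimic-transfected knockout cells. The log2 ratio was 3.92 (3.46 to 4.48), and the 3 knockout libraries lay close together, far above the wild type. Csf2rb and Csf2rb2, the beta chains of the receptors for GM-CSF, IL-3 and IL-5, which are near-identical copies and can share reads, were at 32.5 against 9.38 TPM and 55.2 against 12.1 TPM. Il21r had 25 against 4 TPM and 2.76 (2.45 to 3.12), and Tnfrsf11a, the receptor RANK of osteoclast precursors, 23.7 against 9.83 TPM and 1.40 (1.24 to 1.56). Il1rn, the interleukin 1 receptor antagonist, went the other way, with 709 TPM in wild-type cells against 156 TPM in untransfected, 149.6 TPM in negative-control and 151 TPM in mimic-transfected knockout cells and a log2 ratio of -2.05 (-2.11 to -2.0). Il13ra1, a receptor chain for interleukin 13 named after its values were seen, was lower at 16 against 37.4 TPM (log2 ratio -1.09, -1.24 to -0.94), and among the chemokine receptors Ackr4, a scavenging receptor, at 0.39 against 1.52 TPM (log2 ratio -1.70, -3.28 to -0.58). The CSF and interleukin receptor list, in which Il1rn was the most abundant gene of the wild type, summed to 1546, 1328, 1419 and 1358 TPM. The 10 measured osteoclast genes had a median of -0.03, with 1 higher and 1 lower.

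Not all macrophage functions followed. The 32 lysosomal genes, which include the abundant cathepsins Ctsd (11026 against 7118 TPM) and Ctsb (10187 against 7005 TPM), both proteases, had a median of 0.25, and Ctsh alone was counted as higher. Lipid-handling genes of macrophages had 2 of 18 higher and 2 lower, with log2 ratios of 0.46 for Gpnmb and 0.44 for Spp1, osteopontin. The MHC class II genes that present antigen were scarce, with 3 of 10 measured and none called, and with H2-Ab1 at 1.92 and 1.43 TPM and Cd74 at 1.74 and 1.34 TPM. MHC class I and peptide-loading genes had a median of 0.44, and only the immunoproteasome subunits Psmb8 (log2 ratio 1.35, 1.13 to 1.58) and Psmb9 (log2 ratio 1.02, 0.58 to 1.5) were higher. Genes known from resident tissue macrophages were mixed. Pf4 was higher at 15.3, 136, 156 and 142 TPM (log2 ratio 3.29, 2.87 to 3.78), Mrc1, the mannose receptor CD206, was at 167 against 85.3 TPM, and Vsig4, a complement receptor of resident macrophages, was lower at 0.35 against 3.06 TPM. Of 5 genes with no count in the wild-type library and at least 20 in the knockout library, 4 are named here, after their values were seen. They were Naip6, an inflammasome gene, at least 38.9-fold higher if the wild-type library is given a floor of 3 counts, Cd207, langerin, at least 20.1-fold, Fsbp, at least 11.9-fold, and Adgrg3, at least 10.7-fold. All 5 were above 0 in both transfected knockout libraries. Naip6 has near-identical neighbours and can share reads with them.

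Among secreted mediators, chemokines of the CC class were higher and the most abundant chemokine of the CXC class was lower. Of 12 measured CC chemokines 7 were higher and none lower, with Ccl6 at 92.4 against 18.2 TPM, Ccl9 at 144 against 29.9 TPM and Ccl4 at 181 against 57 TPM. Ccl5, which draws T cells and macrophages, was at 23.9 against 3.19 TPM but at 11.5 and 14.3 TPM after the negative control and the mimic. Ccl2 and Ccl7, which recruit monocytes and which fibroblasts also make, had log2 ratios of 0.29 (0.16 to 0.42) and -0.07 (-0.19 to 0.05). Cxcl12, a stromal chemokine that retains leukocytes and progenitors through CXCR4, had 1800.0 TPM in wild-type cells against 236 TPM in untransfected, 213 TPM in negative-control and 226 TPM in mimic-transfected knockout cells. This gave a log2 ratio of -2.84 (-2.88 to -2.79), so that the wild-type library alone was high. Cx3cl1, the ligand of the receptor Cx3cr1, was lower at 10.1 against 31.5 TPM, and Cxcl5 at 13.8 against 31.1 TPM. The CXC and CX3C class did not move as a group. Of 8 measured members 3 were lower and 2 higher, with 4 below and 4 above 0. Their log2 ratios ran from -2.84 to 3.29. Il34, the second ligand of Csf1r, was lower too at 10.7 against 34 TPM (log2 ratio -1.52, -1.79 to -1.26), while Csf1 had 381 against 339 TPM (log2 ratio 0.29, 0.26 to 0.33).

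The TNF ligand family was split by member. Of 8 measured ligands 5 were higher. Tnfsf15, which acts on T cells and endothelium, had 0.74, 5.37, 3.35 and 6.84 TPM (log2 ratio 2.96, 2.49 to 3.53), Tnfsf14, LIGHT, 2.7 against 0.42 TPM, Tnfsf8 3.8 against 0.88 TPM and the B cell factors Tnfsf13 and Tnfsf13b 48.1 against 20.2 TPM and 1.7 against 0.47 TPM. Tnf itself, counted in the cytokine list, was at 18.7 against 6.94 TPM (log2 ratio 1.56, 1.21 to 1.94). Tnfsf11, which encodes RANKL, the osteoclast differentiation factor, was lower at 8.85, 1.57, 1.54 and 1.19 TPM (log2 ratio -2.32, -2.97 to -1.79).

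Classical complement had its first subunit on one side and its proteases on the other. The C1q chains were near 2-fold higher, whereas C1ra, the protease that C1q activates, had 130.2, 41.5, 36.7 and 35.5 TPM (log2 ratio -1.52, -1.62 to -1.41), C4b 128, 31.3, 21.4 and 22.3 TPM (log2 ratio -1.90, -1.98 to -1.82) and Serping1, the C1 inhibitor, 409, 144, 102 and 117 TPM (log2 ratio -1.37, -1.44 to -1.30). C1s1 was at 83 against 178 TPM (log2 ratio -0.97, -1.05 to -0.89). Acute-phase genes were lower for 4 of 8 and higher for 1. Lower were Hp, haptoglobin, at 68.9, 14, 8.97 and 7.57 TPM (log2 ratio -2.15, -2.43 to -1.90) and Ptx3, pentraxin 3, at 438, 141, 134 and 106 TPM (log2 ratio -1.50, -1.57 to -1.43). The higher one was Saa3, with the largest ratio of the list at 3.90, and its levels are given further below.

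Of 20 genes of eicosanoid synthesis and reception 7 were higher and 1 lower. Ptgs1, the constitutive cyclooxygenase, had 8.21, 39.5, 39.1 and 38.8 TPM (log2 ratio 2.23, 2.03 to 2.44). Tbxas1, thromboxane synthase, was at 60.7 against 20.9 TPM, Hpgds, the haematopoietic prostaglandin D synthase, at 93.3 against 38.6 TPM, Ltc4s, leukotriene C4 synthase, at 34.5 against 9.91 TPM, and Alox5ap, which presents arachidonate to 5-lipoxygenase, at 286 against 108 TPM. The cytosolic prostaglandin E synthase Ptges3 had a log2 ratio of 0.01 (-0.08 to 0.10). Ptgfr, the receptor for prostaglandin F, was lower at 1.73 against 9.39 TPM (log2 ratio -2.30, -2.71 to -1.93).

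Interferon-stimulated genes, which encode antiviral effectors, were higher for 10 of 41 with none lower, and the 10 higher ones reached at most 32 TPM in the knockout library, in Isg15, named after its values were seen. Oas3, a sensor that makes the messenger 2-5A from double-stranded RNA, had 0.46, 2.17, 2.83 and 2.95 TPM (log2 ratio 2.32, 1.64 to 3.20), Usp18 0.52, 2.39, 1.32 and 3.64 TPM (log2 ratio 2.19, 1.14 to 3.75) and Rsad2, viperin, 0.61, 1.86, 1.7 and 3.25 TPM (log2 ratio 1.69, 0.98 to 2.56). Within the Oas family 3 of 6 measured genes were higher. The abundant Ifitm3 and Ifitm2 had log2 ratios of 0.14 and 0.00, and the list summed to 2699.8, 2680.5, 2438 and 2672 TPM. The interferon response element, searched as GAAA, any 2 bases and GAAA again on both strands, was in 20 of 30 promoters of the list (66.7%), against 3.83% of all. The window of Oas3 is shown because it holds the element in capitals.
Oas3 (chr5:120777610-120777909, minus strand): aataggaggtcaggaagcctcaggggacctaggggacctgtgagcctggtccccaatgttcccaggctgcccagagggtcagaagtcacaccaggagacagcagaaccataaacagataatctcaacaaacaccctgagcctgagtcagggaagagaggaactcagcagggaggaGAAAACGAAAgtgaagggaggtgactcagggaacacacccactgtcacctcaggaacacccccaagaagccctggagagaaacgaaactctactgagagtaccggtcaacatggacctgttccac

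Immediate early genes, which serum and stress induce within minutes, were lower for 4 of 22 and higher for none. Egr1 had 161, 68, 78.5 and 94.2 TPM (log2 ratio -1.11, -1.19 to -1.03), Egr3 6.85, 1.5, 2.2 and 3.04 TPM (log2 ratio -2.05, -2.52 to -1.63) and Ier2 82.3, 35.8, 47 and 52.7 TPM (log2 ratio -1.06, -1.23 to -0.90). Jun and Junb had log2 ratios of -0.26 (-0.35 to -0.18) and -0.44 (-0.53 to -0.34).

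**Figure D3:**
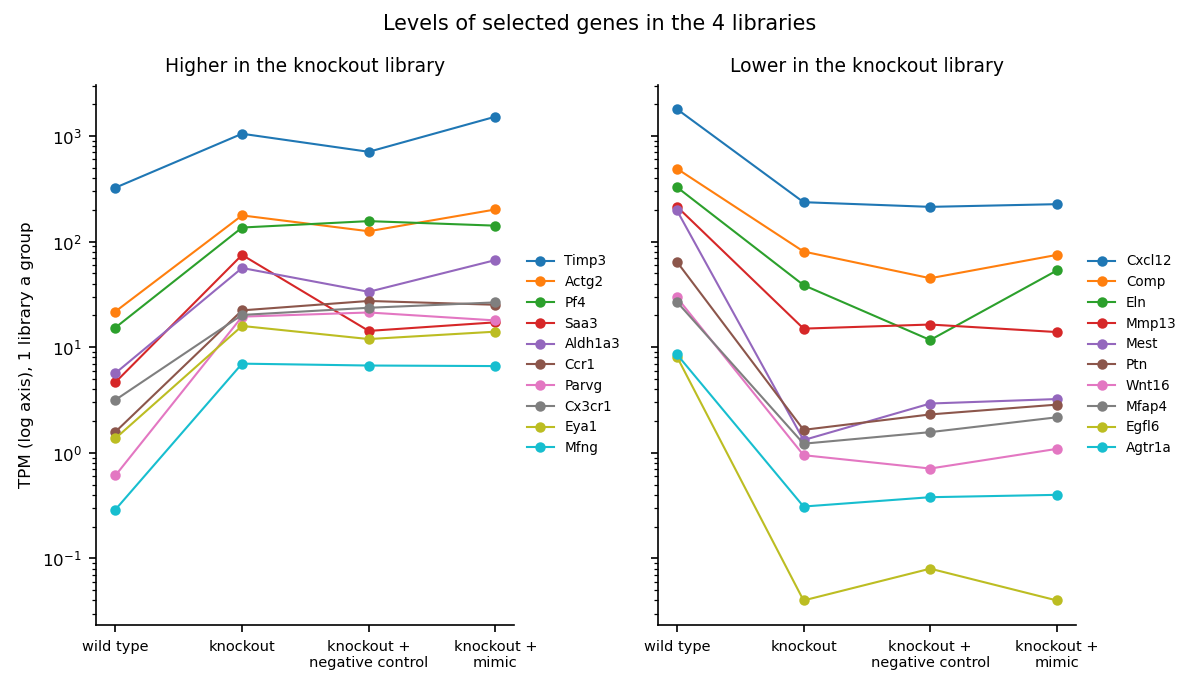
Each line joins the TPM of 1 gene, on a log axis, in the wild-type library and the 3 knockout libraries, with 1 library a group. Every gene on the left stays above its wild-type level in all 3 knockout libraries, and Saa3 falls back towards that level in both transfected ones. Every gene on the right stays below its wild-type level, with Cxcl12 between 213 and 236 TPM in knockout cells against 1800 TPM.

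Structural matrix genes were lower across most of its classes. Of 11 fibrillar collagens, which form the load-bearing fibres, 6 were lower and 10 lay below 0, with a median of -1.05, and their summed TPM was 17586, 7513, 7642 and 8326 TPM in the wild-type, untransfected knockout, negative-control and mimic libraries. Col3a1, collagen III of compliant tissue, had 4128 TPM in wild-type cells against 1265 TPM in untransfected, 1263 TPM in negative-control and 1438 TPM in mimic-transfected knockout cells. Its log2 ratio was -1.58 (-1.59 to -1.56), further from 0 than those of Col1a1 (log2 ratio -0.94, -0.95 to -0.93) and Col1a2 (log2 ratio -1.05, -1.06 to -1.04), the chains of collagen I. Col5a3 was at 117, 32.7, 59.2 and 44.9 TPM (log2 ratio -1.72, -1.79 to -1.64), more strongly lower than Col5a1 (log2 ratio -1.10, -1.12 to -1.08) and Col5a2 (log2 ratio -0.75, -0.77 to -0.74). The exception was Col2a1, the collagen of cartilage, with 0.53, 4.42, 3.32 and 6.84 TPM (log2 ratio 3.12, 2.55 to 3.86). Of 18 other measured collagens 9 were lower and none higher. The 3 main chains of beaded-filament collagen VI had log2 ratios of -1.20, -1.27 and -1.38, Col18a1 -1.15, and Col8a2, of short-chain collagen VIII, the furthest from 0, at 1.1 against 12.4 TPM (log2 ratio -3.34, -3.86 to -2.92). The basement membrane chains Col4a1 and Col4a2 had smaller ones, -0.72 (-0.74 to -0.69) and -0.63 (-0.67 to -0.60).

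The enzymes that make collagen moved less than collagen. Of 28 genes of hydroxylation, folding and crosslinking 2 were lower and 1 higher, with a median of -0.39. Serpinh1, the collagen chaperone HSP47, had a log2 ratio of -0.76 (-0.79 to -0.73), Lox, lysyl oxidase, -0.74 (-0.76 to -0.72), and P4hb, a subunit of prolyl hydroxylase, -0.12 (-0.15 to -0.09). Loxl4, another lysyl oxidase, was higher at 18.5 against 7.59 TPM (log2 ratio 1.41, 1.24 to 1.60).

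Elastic fibre genes were lower for 7 of 17. Eln, elastin, had 328 TPM in wild-type cells against 38.7 TPM in untransfected, 11.7 TPM in negative-control and 53.3 TPM in mimic-transfected knockout cells, a log2 ratio of -2.96 (-3.04 to -2.88) in the untransfected comparison. Its 3 knockout libraries spread from 11.7 to 53.3 TPM, all below the wild type. Mfap4, a microfibril-associated glycoprotein, had 26.9, 1.22, 1.57 and 2.17 TPM (log2 ratio -4.25, -5.19 to -3.59) and Fbn2, fibrillin 2, 2.43 against 16.1 TPM (log2 ratio -2.60, -2.81 to -2.40). Fbn1, the main fibrillin, had 641, 345, 101 and 383 TPM (log2 ratio -0.77, -0.79 to -0.75), and the negative-control library stood apart from the other knockout libraries.

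All 10 measured small leucine-rich proteoglycans, which bind collagen fibrils and set their spacing, lay below 0, and 4 were lower. Lum, lumican, had 100.4, 14.3, 6.74 and 8.65 TPM (log2 ratio -2.67, -2.88 to -2.48), Aspn, asporin, 207, 32.1, 27.1 and 26.8 TPM (log2 ratio -2.55, -2.68 to -2.44) and Podn, podocan, 14.4 against 55.8 TPM. Bgn, biglycan, the most abundant of them, had 6636, 3139.7, 2924 and 3311 TPM (log2 ratio -0.95, -0.96 to -0.93), while Fmod and Prelp had log2 ratios of -0.06 (-0.09 to -0.03) and -0.03 (-0.06 to 0.01). Of 26 fibronectin, tenascin and matricellular genes 10 were lower and none higher. Comp, a pentameric protein of cartilage and tendon, was at 491, 80.6, 45 and 74.9 TPM (log2 ratio -2.48, -2.55 to -2.40), Ccn3 at 253, 56.6, 56.5 and 44.7 TPM (log2 ratio -2.03, -2.12 to -1.94), and Postn, periostin, at 1489, 642, 511 and 706 TPM (log2 ratio -1.09, -1.11 to -1.06). Matn2, matrilin 2, had 14.4 against 75.6 TPM and Matn4 0.32 against 4.88 TPM. Fn1, fibronectin, had 8278, 3995, 3958 and 4709 TPM (log2 ratio -0.92, -0.93 to -0.92), and Thbs1, thrombospondin 1, 1508, 1134, 978 and 1531 TPM (log2 ratio -0.28, -0.30 to -0.27).

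Of 15 laminin and basement membrane genes 3 were higher and 1 lower. Lama1 was higher at 6.73 against 2.72 TPM (log2 ratio 1.43, 1.2 to 1.66) and Tinagl1 at 40.3 against 14 TPM (log2 ratio 1.65, 1.43 to 1.89), while Nid2, nidogen 2, was lower at 20.5 against 56 TPM (log2 ratio -1.32, -1.43 to -1.21). Npnt, nephronectin, was at 8.44 against 3.07 TPM in the untransfected comparison but at 2.27 and 10.7 TPM after the negative control and the mimic, the first of these below the wild type. Macrophage markers were higher where these matrix genes were lower, and the part of the cell mixture in the matrix differences was not tested. The fibroblast identity list itself had 6 of 16 genes lower, with a median of -0.68, and its members diverged. Dpt, dermatopontin, had 32.7 against 218 TPM (log2 ratio -2.60, -2.75 to -2.46), Pdgfra 30.0 against 70.9 TPM (log2 ratio -1.13, -1.22 to -1.05) and Thy1 374 against 614 TPM (log2 ratio -0.58, -0.63 to -0.53). Vim, vimentin, had a log2 ratio of -0.09 (-0.11 to -0.07) and S100a4 was above 0 at 0.92 (0.88 to 0.96), and both are also made by macrophages. Of 8 measured genes of the synovial lining 2 were lower and none higher, and 7 lay below 0, with a median of -0.87 and a summed TPM of 8497, 4162, 4088 and 4892 TPM. Tspan15, a tetraspanin, had 5.04 against 20.7 TPM (log2 ratio -1.94, -2.30 to -1.61) and Cd55, a complement regulator of lining fibroblasts, 6.5 against 15.4 TPM (log2 ratio -1.10, -1.38 to -0.85). Prg4, lubricin, was the member above 0, at 95.1, 106, 70.5 and 116 TPM (log2 ratio 0.29, 0.22 to 0.36).

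Matrix-degrading enzymes were mostly lower as well. Of 13 measured matrix metalloproteinases 7 were lower and 2 higher. Mmp13, a collagenase, had 215 TPM in wild-type cells against 15 TPM in untransfected, 16.4 TPM in negative-control and 13.9 TPM in mimic-transfected knockout cells. The log2 ratio was -3.70 (-3.87 to -3.55), and each of the 3 knockout values lay below the single wild-type value. Mmp9, a gelatinase, had 21, 1.25, 1.04 and 0.6 TPM (log2 ratio -3.90, -4.48 to -3.45), Mmp2, the other gelatinase, 958, 244, 269 and 247 TPM (log2 ratio -1.84, -1.88 to -1.80), and Mmp14, the membrane protease that activates it, 739.5, 334, 322 and 329 TPM (log2 ratio -1.02, -1.05 to -0.98). Mmp12, the elastase of macrophages, was higher at 169.7, 466, 426 and 562 TPM (log2 ratio 1.61, 1.54 to 1.67), and Mmp3, stromelysin 1, at 72.2, 203, 91.8 and 101 TPM (log2 ratio 1.63, 1.52 to 1.73). Of 18 ADAMTS genes 7 were lower and none higher, with the aggrecanases Adamts4 at -1.40 (-1.56 to -1.24) and Adamts5 at -0.92 (-0.98 to -0.87) and the versican-cleaving Adamts1 at -1.19 (-1.25 to -1.14).

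The inhibitors of these proteases did not move as a group. Timp3, which is bound to matrix and inhibits metalloproteinases and ADAMTS enzymes, was higher, with 324 TPM in wild-type cells against 1051 TPM in untransfected, 709 TPM in negative-control and 1525 TPM in mimic-transfected knockout cells and a log2 ratio of 1.83 (1.80 to 1.85). Timp1 had a log2 ratio of 0.54 (0.50 to 0.58) and Timp2 -0.43 (-0.45 to -0.41). Serpine2, protease nexin 1, was lower at 306 against 720.1 TPM (log2 ratio -1.10, -1.15 to -1.05).

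Integrins were found in both directions. The 5 higher ones of 24 included the leukocyte chains Itgal, Itgam and Itgb2 and also Itga6, a laminin receptor, at 68.3 against 30.9 TPM (log2 ratio 1.27, 1.19 to 1.36). The 4 lower ones included Itga11, the collagen receptor chain of fibroblasts, at 575, 188, 176 and 214 TPM (log2 ratio -1.49, -1.52 to -1.45), Itga10, another collagen receptor chain, at 0.46 against 1.32 TPM, and Itga7 at 18.5 against 57.1 TPM (log2 ratio -1.49, -1.62 to -1.37). Itgb1, the partner of all 3, had 601, 688, 673 and 701 TPM (log2 ratio 0.32, 0.30 to 0.35).

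**Figure D4:**
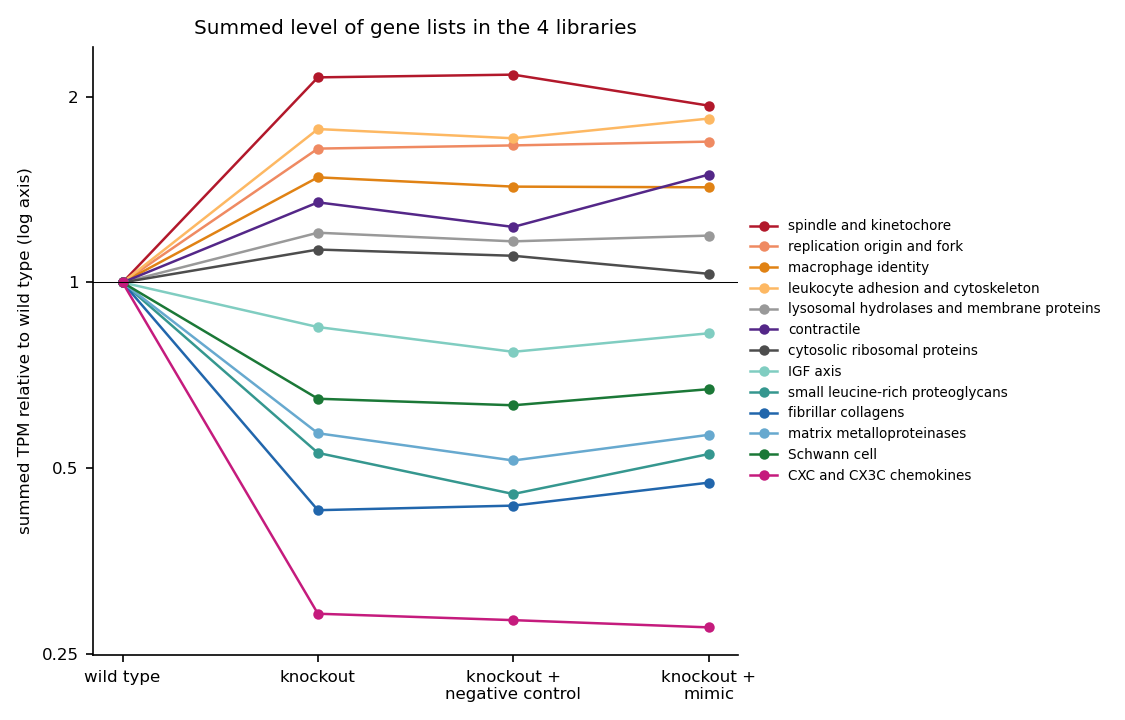
Lines join the summed TPM of gene lists in the 4 libraries, each divided by the wild-type value and drawn on a log axis, with 1 library a group. Spindle and kinetochore genes stand at 683.7 against 317.8 TPM in the untransfected comparison, fibrillar collagens stand at 7513 against 17586 TPM, and the CXC and CX3C chemokines at 583.5 against 2010.8 TPM, with both transfected libraries close to the untransfected knockout.

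Some smooth muscle contractile genes were higher while matrix genes were lower. Acta2, smooth muscle actin, had 861 TPM in wild-type cells against 2199 TPM in untransfected, 1804 TPM in negative-control and 2517 TPM in mimic-transfected knockout cells. This gave a log2 ratio of 1.45 (1.42 to 1.48). Actg2, the enteric isoform, had 21.8, 177, 125 and 202 TPM (log2 ratio 3.16, 2.95 to 3.38), Cnn1, calponin, 14.3, 52.9, 34.2 and 51.4 TPM (log2 ratio 2.05, 1.79 to 2.33), Tpm2 238 against 93 TPM (log2 ratio 1.52, 1.42 to 1.62) and Tagln, transgelin, 941 against 419.6 TPM (log2 ratio 1.30, 1.25 to 1.35). These were the 5 higher genes of 24. The other abundant members, Tpm1, Flna, Myh9 and Tpm4, lay between -0.03 and 0.21, and Mylk, the kinase of myosin light chain, was lower (log2 ratio -1.24, -1.51 to -0.98). Of 9 pericyte and smooth muscle cell markers none was counted as higher or lower, Pdgfrb had 262 against 492 TPM (log2 ratio -0.79, -0.82 to -0.75) and Myh11, smooth muscle myosin, 2.26 against 1.89 TPM (log2 ratio 0.37, -0.01 to 0.75).

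Targets of the mechanosensitive coactivators YAP and TAZ were split, with 3 of 21 higher and none lower. Ankrd1 had 1.27 TPM in wild-type cells against 18.8 TPM in untransfected, 21 TPM in negative-control and 28.9 TPM in mimic-transfected knockout cells. Its log2 ratio was 3.95 (3.32 to 4.82), and Nt5e, the ecto-nucleotidase CD73, had 6.64 against 1.16 TPM (log2 ratio 2.62, 2.12 to 3.22). The third was Crim1, a membrane protein that binds BMPs (log2 ratio 1.02, 0.91 to 1.12). Ccn2, connective tissue growth factor, had a log2 ratio of 0.69 (0.65 to 0.73) and Ccn1 -0.27 (-0.33 to -0.22). Yap1 itself had 47.7 against 70.8 TPM (log2 ratio -0.45, -0.54 to -0.36), and 14 of the 21 measured genes lay below 0.

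In Wnt signalling both ligands and modulators changed, more of them downward. Of 40 measured genes 12 were lower and 8 higher. Wnt16, which acts in joints and bone, had 29.6 TPM in wild-type cells against 0.95 TPM in untransfected, 0.71 TPM in negative-control and 1.09 TPM in mimic-transfected knockout cells. The log2 ratio was -4.74 (-5.77 to -4.05). The R-spondins, which raise Wnt receptor levels, were lower, with Rspo2 at 85.2, 15.8, 18.7 and 20.4 TPM (log2 ratio -2.30, -2.45 to -2.15) and Rspo1 at 0.36 against 5.36 TPM (log2 ratio -3.66, -5.56 to -2.61). Sfrp2, a secreted Wnt binder, had 49.9, 6.22, 4.29 and 3.67 TPM (log2 ratio -2.85, -3.17 to -2.56) and Dkk3 323, 132, 48 and 117 TPM (log2 ratio -1.17, -1.22 to -1.11). Of 8 measured frizzled receptors 4, Fzd8, Fzd1, Fzd2 and Fzd5, were lower with log2 ratios of -1.92, -1.30, -1.15 and -1.07, whereas Fzd7 had a log2 ratio of 0.06 (-0.05 to 0.17). In the other direction Wnt4 had 0.25, 3.62, 2.4 and 2.61 TPM (log2 ratio 3.81, 2.94 to 5.21), Wnt11 2.02 against 0.37 TPM (log2 ratio 2.43, 1.47 to 3.86) and Notum, a feedback enzyme that inactivates Wnt proteins, 0.26, 2.26, 1.46 and 1.16 TPM (log2 ratio 3.02, 1.83 to 5.24).

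Of 28 measured BMP genes 6 were higher and 2 lower, with a median of -0.22 and strong members on both sides. The Id genes, direct targets that encode dominant-negative helix-loop-helix proteins, were higher. Id1 had 12.7 TPM in wild-type cells against 89.3 TPM in untransfected, 84.2 TPM in negative-control and 68.2 TPM in mimic-transfected knockout cells, a log2 ratio of 2.96 (2.63 to 3.33). Id2 was at 53.7, 154, 192 and 164 TPM (log2 ratio 1.66, 1.51 to 1.81) and Id3 at 239, 491, 438 and 368 TPM (log2 ratio 1.18, 1.10 to 1.27). The antagonist Grem1 (121 against 33.3 TPM, log2 ratio 1.99, 1.83 to 2.15) was higher as well, whereas the antagonist Chrdl1 was lower at 6.5, 0.24, 0.17 and 0.13 TPM (log2 ratio -4.49, -5.78 to -3.68) and the co-receptor Rgma at 3.79 against 17.9 TPM (log2 ratio -2.11, -2.41 to -1.83).

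In the Notch pathway 4 of 18 genes were lower and 2 higher. The lower ones included the receptor Notch1 (log2 ratio -1.13, -1.26 to -1.02), the ligand Dll1 (log2 ratio -2.01, -2.96 to -1.28) and the target Hey1 (log2 ratio -1.13, -1.35 to -0.92). The sugar transferase Mfng, manic fringe, which modifies Notch receptors, had 0.29 TPM in wild-type cells against 6.99 TPM in untransfected, 6.71 TPM in negative-control and 6.63 TPM in mimic-transfected knockout cells. Its log2 ratio of 4.45 (3.35 to 6.65) rests on 4 counts in the wild-type library.

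Of 13 retinoic acid genes 4 were higher and none lower. Aldh1a3, an enzyme that makes retinoic acid, had 5.68 TPM in wild-type cells against 56.3 TPM in untransfected, 33.5 TPM in negative-control and 66.8 TPM in mimic-transfected knockout cells. This gave a log2 ratio of 3.43 (3.20 to 3.68). Aldh1a2, with the same activity, had 11.2, 34.9, 25.8 and 32 TPM (log2 ratio 1.77, 1.54 to 2.01). Rarb, a receptor that retinoic acid induces, was at 0.61, 2.67, 2.82 and 2.08 TPM (log2 ratio 2.16, 1.41 to 3.14), while the receptors Rara, Rarg and Rxra had log2 ratios of -0.47, -0.32 and -0.39 and the carrier Crabp2 -0.70 (-0.99 to -0.41).

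The insulin-like growth factor axis had 4 of 18 genes lower and none higher. Igfbp5, a binding protein, had 137, 23, 15.3 and 25.1 TPM (log2 ratio -2.45, -2.54 to -2.37), Igfbp3 44.9 against 99.8 TPM (log2 ratio -1.02, -1.14 to -0.91) and Irs1, a receptor substrate, 9.3 against 22.8 TPM (log2 ratio -1.17, -1.29 to -1.05). Igf2 was at 1.69 against 6.66 TPM (log2 ratio -1.84, -2.31 to -1.43). The most abundant binding protein, Igfbp7, had a log2 ratio of 0.35 (0.30 to 0.39), and Igfbp2 had a log2 ratio of 0.92 (0.81 to 1.04). Of 29 measured stromal growth factors 7 were lower and 2 higher, 11 lay above 0, and the median was -0.30. Among the lower ones, Ptn, pleiotrophin, is a heparin-binding factor of developing connective tissue. Ptn had 64.4 TPM in wild-type cells against 1.65 TPM in untransfected, 2.31 TPM in negative-control and 2.86 TPM in mimic-transfected knockout cells. Its log2 ratio of -5.09 (-5.85 to -4.53) was among the 15 largest downward. Angptl4 (4.47 against 40.4 TPM, log2 ratio -3.03, -3.42 to -2.69), Angpt1 (1.03 against 6.52 TPM, log2 ratio -2.49, -3.04 to -2.03), Fgf10 (0.41 against 2.62 TPM, log2 ratio -2.48, -3.38 to -1.79) and Vegfd (20.9 against 55.1 TPM, log2 ratio -1.36, -1.56 to -1.16) were lower too, while Vegfa had a log2 ratio of -0.11 (-0.19 to -0.02).

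In guidance and adhesion families known from the nervous system more genes were lower than higher. Of 19 measured semaphorins 11 were lower, with Sema7a, which is bound to membranes, at 32.9, 8.45, 13.3 and 13.6 TPM (log2 ratio -1.83, -2.05 to -1.63) and Sema3f at 4.53 against 13.9 TPM (log2 ratio -1.62, -1.91 to -1.35). The 2 higher ones were Sema4d, the semaphorin of leukocytes, at 28.6, 77.8, 85.2 and 86.8 TPM (log2 ratio 1.57, 1.47 to 1.67), and Sema3a at 1.13 against 0.54 TPM (log2 ratio 1.27, 0.60 to 2.03). A wider list of class 3 semaphorins, slits, netrins and their receptors, which shares genes with the family, had 6 of 26 lower, 2 higher, 11 above 0, a median of -0.15 and a summed TPM of 892, 966, 929 and 989 TPM. Of 17 ephrins and Eph receptors 6 were lower and none higher, including Ephb3 (log2 ratio -1.12, -1.28 to -0.97) and Efna5 (log2 ratio -1.57, -1.99 to -1.20). Among 49 measured protocadherins, adhesion molecules most of which come from clustered genes on chromosome 18, 46 lay below 0 and 18 were lower, with a median of -0.85. Pcdhgc3, the most abundant, had 233, 114, 122 and 115 TPM (log2 ratio -0.89, -0.94 to -0.84), and Pcdh18, outside the clusters, 7.39 against 21.9 TPM (log2 ratio -1.43, -1.62 to -1.26). Clustered protocadherins share exons and near-identical copies, so reads may be split between them. Pcdh10 was the single member counted as higher, at 0.23, 1.29, 1.33 and 1.18 TPM (log2 ratio 2.63, 1.69 to 4.05). On chromosome 18 as a whole 11.4% of 350 genes were lower, against 7% of all genes and 10.9% on chromosome X. The share for chromosome 18 includes the clustered protocadherins and is not separate from their counts. Of 13 measured voltage-gated potassium channels 7 were lower, led in level by Kcna6 (2.98 against 8.58 TPM) and Kcna1 (1.02 against 5.82 TPM). Only 4 of these channels reached 5 CPM in either library.

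Genes that give positional identity to limb and trunk mesenchyme differed by cluster and by factor. In the HoxA cluster 5 of 10 measured genes were lower, Hoxa2, Hoxa3, Hoxa5, Hoxa6 and Hoxa10, with ratios from -1.99 to -1.17. Hoxa10, the most abundant of them, had 36.9 TPM in wild-type cells against 14.6 TPM in untransfected, 18.9 TPM in negative-control and 17.4 TPM in mimic-transfected knockout cells, a log2 ratio of -1.17 (-1.38 to -0.97). The HoxB genes had a median of -0.63 with only Hoxb8 lower (log2 ratio -1.05, -1.63 to -0.53), and Hoxc6, the most abundant Hox gene, had 47.6, 28.2, 26.4 and 25.8 TPM (log2 ratio -0.70, -0.86 to -0.55). Of 6 measured HoxC genes 1 and of 5 measured HoxD genes 1 were higher, both at very low levels. Hoxc13 had 0.42, 1.05, 0.92 and 1.32 TPM (log2 ratio 1.37, 0.25 to 2.85) and Hoxd10 0.14, 1.43, 1.55 and 2.05 TPM (log2 ratio 3.03, 1.52 to 6.66). Hoxd13 was at 0 in the wild-type library and at 0.49, 0.78 and 0.8 TPM in the knockout libraries, below the level at which a gene was measured.

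**Figure D5:**
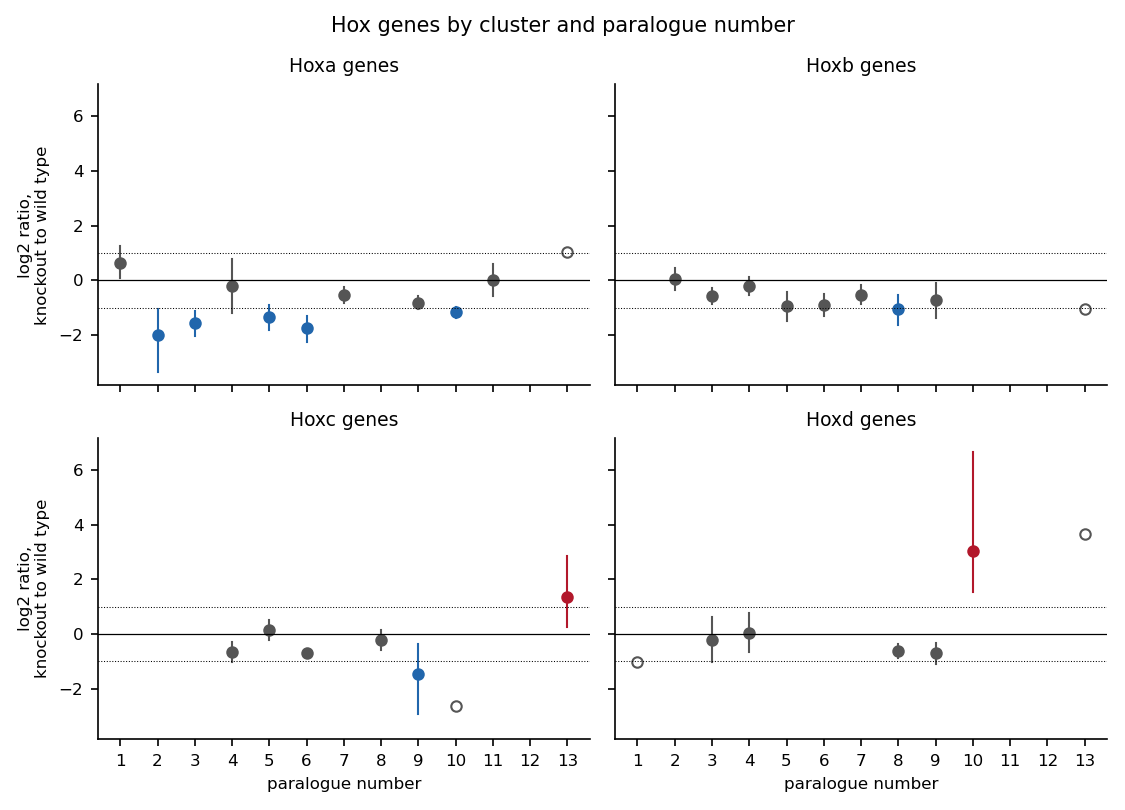
Hox genes are arranged by cluster in 4 panels and by paralogue number, with the log2 ratio of knockout to wild type and its 95% counting interval; blue is lower, red higher, grey neither, and open circles are genes below 1 CPM in both libraries, drawn without an interval. In the HoxA panel 5 of 10 measured genes are blue, and the 2 red points are Hoxc13 and Hoxd10.

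Among other patterning factors 16 of 45 were lower and 5 higher. Tbx15, a T-box factor of shoulder blade and skin mesenchyme, had 84.4, 33.8, 33 and 40.5 TPM (log2 ratio -1.18, -1.29 to -1.07). Pax1, which acts in the development of the shoulder girdle and spine, had 3.22 TPM in wild-type cells and no count in untransfected knockout cells, which with the floor of 3 counts makes it at least 22.5-fold lower, with 0.12 and 0.34 TPM in the transfected libraries. Eya1, a transcriptional coactivator of organ development, was higher at 1.37 TPM in wild-type cells against 15.9 TPM in untransfected, 11.9 TPM in negative-control and 14 TPM in mimic-transfected knockout cells. Its log2 ratio was 3.63 (3.24 to 4.11). Irx1 (0.31, 2.18, 3.9 and 3.79 TPM, log2 ratio 2.72, 1.59 to 4.64) and Irx2 (0.38, 1.86, 2.35 and 2.31 TPM, log2 ratio 2.43, 1.47 to 3.86), adjacent Iroquois genes, were also higher. The general mesenchymal factors Prrx1, Prrx2 and Twist1 differed less than 2-fold, with -0.11, 0.44 and -0.58 as log2 ratios. Of 10 measured Sox factors 6 were lower and none higher, among them Sox9 of cartilage (3.24 against 7.33 TPM, log2 ratio -1.04, -1.37 to -0.73), Sox10 and Sox2 of Schwann and neural crest cells (13.7 against 39.7 TPM and 4.84 against 14 TPM) and Sox12 and Sox13 (-1.30 and -1.36). Sox4, the most abundant, had 40.0 against 78.1 TPM (log2 ratio -0.84, -0.92 to -0.75).

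Markers of cells that an explant can carry were lower in the knockout library for adipocytes, Schwann cells and skeletal muscle. Of 9 measured adipocyte genes 6 were lower. Adipoq, adiponectin, had 23.5 TPM in wild-type cells against 0.11 TPM in untransfected, 0.49 TPM in negative-control and 0 TPM in mimic-transfected knockout cells, with 1 count in the untransfected knockout library and a log2 ratio of -6.70 (-12.97 to -5.17). Cfd, adipsin, had 26, 0.2, 0.14 and 0.2 TPM (log2 ratio -6.30, -12.57 to -4.76) and Car3 11.9, 0.08, 0.3 and 1.03 TPM (log2 ratio -6.11, -12.38 to -4.56), again with 1 count each. Fabp4, which macrophages also make, was at 220.3, 64.4, 65.5 and 62.4 TPM (log2 ratio -1.61, -1.82 to -1.41), and Pparg and Pnpla2 had log2 ratios of -0.27 (-0.49 to -0.05) and 0.12 (-0.02 to 0.26). The summed TPM of the list was 369.6, 129.9, 143 and 137 TPM. Of 12 skeletal muscle genes 9 were lower, with a median of -2.16 and a summed TPM of 63.9, 22.8, 15.3 and 19.1 TPM. These genes were scarce, and too few reached 5 CPM in either library for a median. Over the list the median was -1.72 with deposited TPM, -1.67 with no filter and -1.80 with a prior count of 5. Myl1, a myosin light chain, had 9.74, 1.11, 1.36 and 0.92 TPM (log2 ratio -2.63, -4.05 to -1.69) and Tnnt3, a troponin of fast fibres, 6.81, 1.31, 0.62 and 0.7 TPM (log2 ratio -2.08, -3.26 to -1.21). Of 12 Schwann cell genes 7 were lower and the list summed to 744, 482, 470.0 and 499 TPM. Ngfr, the low-affinity neurotrophin receptor, had 200.5, 70.8, 72 and 70.6 TPM (log2 ratio -1.37, -1.44 to -1.30) and Scn7a 4.48, 0.4, 0.44 and 0.55 TPM (log2 ratio -3.32, -3.99 to -2.79), while Pmp22, which fibroblasts also express, had a log2 ratio of 0.04 (-0.02 to 0.10). In all these lists the 3 knockout libraries lay on the same side of the wild-type sum.

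Skeletal lineage markers were mixed. Ibsp, bone sialoprotein, had 6.38 TPM in wild-type cells and no count in any knockout library, at least 31.8-fold lower. Bglap2, osteocalcin 2, which has near-identical copies, was at 3.11 against 10.4 TPM (log2 ratio -1.43, -3.05 to -0.29) and not called with an interval at 99%, Runx2 had a log2 ratio of -0.47 (-0.64 to -0.30), and Alpl and Sp7 were higher at 3.35 against 1.49 TPM and 0.7 against 0.17 TPM in the untransfected knockout library but stood at 1.34 and 1.35 TPM and 0.04 and 0.4 TPM in the transfected ones, near or below the wild-type values for Alpl. Of 9 cartilage genes 4 were lower and Col2a1 alone was higher, while Acan, the main proteoglycan of cartilage, was at 0.4 and 0.31 TPM.

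Imprinted genes, which are expressed from 1 parental allele, were lower for 7 of 22 and higher for none. Mest (Entrez Gene 17294), a paternally expressed gene of mesenchyme, had 198 TPM in wild-type cells against 1.32 TPM in untransfected, 2.93 TPM in negative-control and 3.23 TPM in mimic-transfected knockout cells. Its log2 ratio of -7.07 (-7.69 to -6.59) was the largest in size among genes of at least 5 TPM that were counted in both libraries. The wild-type library alone was high, and the counts were 4044 there and 29, 71 and 73 in the knockout libraries. Dlk1 had 13.5, 1.95, 2.19 and 2.04 TPM (log2 ratio -2.83, -3.56 to -2.26), Plagl1 11.6, 2.46, 2.12 and 2.38 TPM (log2 ratio -2.09, -2.41 to -1.80) and Grb10, an adaptor that restrains insulin signalling, 172, 67.9, 55.5 and 62.2 TPM (log2 ratio -1.21, -1.28 to -1.15). Gnas, the most abundant imprinted gene, had a log2 ratio of 0.14 (0.10 to 0.17), Igf2r -0.69 (-0.73 to -0.64) and Impact -0.31 (-0.39 to -0.24), so members on both sides of 0 were found among the abundant ones.

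Other genes with very large downward ratios belonged to none of the lists described here. Egfl6 had 8.14, 0.04, 0.08 and 0.04 TPM (log2 ratio -6.49, -12.76 to -4.95), Cyp2f2, a cytochrome P450, 9.88, 0.13, 0.12 and 0 TPM (log2 ratio -5.53, -9.15 to -4.21), and Agtr1a, an angiotensin II receptor, 8.56, 0.31, 0.38 and 0.4 TPM (log2 ratio -4.47, -6.14 to -3.52). Nrep, a regulator of fibroblast migration and TGF-beta signalling, had 107, 7.1, 5.37 and 6.27 TPM (log2 ratio -3.75, -4.03 to -3.50) and Clec3b, tetranectin, 31.7, 1.95, 0.39 and 0.69 TPM (log2 ratio -3.79, -4.78 to -3.10). Of 9 genes with no count in the untransfected knockout library and at least 20 in the wild type, Ibsp and Xlr3a were also at 0 in both transfected libraries, and the other 7 were above 0 in at least 1 of them. Xlr3a, named after its values were seen and one of several near-identical X-linked copies, was at least 6.78-fold lower. Upward, Rtn1, a reticulon of the endoplasmic reticulum, had 0.44, 5.65, 8.52 and 7.13 TPM (log2 ratio 3.73, 3.02 to 4.76) and Plac8 1.25, 16.6, 17.7 and 18.2 TPM (log2 ratio 3.72, 2.67 to 5.62), and Cd72, an inhibitory receptor, 159, 565, 489 and 527 TPM.

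Several large families shifted by less than 2-fold but in 1 direction. Of 81 cytosolic ribosomal protein genes 79 lay above 0 with a median of 0.30, and Rpl39l, a low-abundance paralogue, was the single one counted as higher (log2 ratio 1.23, 0.49 to 2.10). Of 78 mitochondrial ribosomal protein genes 72 lay above 0 (median 0.31), of 36 subunits of respiratory complex I 35 (median 0.43) and of 17 ATP synthase subunits all 17 (median 0.32). Conversely 256 of 325 Zfp zinc finger genes lay below 0, with a median of -0.25. Over all measured genes 51.2% lay above 0. These medians are small against the choice of scale: log2 ratios of deposited TPM in place of scaled counts moved the median of all genes from 0.01 to -0.11, and genes below 5 TPM had a median of -0.19 against 0.25 for genes of at least 500 TPM. Ribosomal and respiratory genes are abundant and Zfp genes scarce, and the part of level in these medians was not tested.

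Published targets of miR-26a, gathered from the literature on other tissues, had shares of called genes near the background. Of 31 measured targets 2 were higher and 2 lower, 18 lay above 0 and 13 below, and their median was 0.24 beside 0.01 for all genes. Higher were Ptgs2, the inducible cyclooxygenase (5.76, 12.3, 11.5 and 13.5 TPM, log2 ratio 1.22, 0.99 to 1.46), and Ccne2 (5.99, 12, 10.9 and 11.1 TPM, log2 ratio 1.14, 0.85 to 1.44), both of which carry the seed site in the 3' untranslated region, with 2 and 1 sites. Lower were Tet1, a DNA demethylase (0.17 against 0.51 TPM, log2 ratio -1.49, -2.30 to -0.81), with 2 sites, and Col1a2 (log2 ratio -1.05, -1.06 to -1.04), with 1. Hmga1 and Prkcd, each with 1 site, had log2 ratios of 0.60 (0.51 to 0.70) and 0.68 (0.60 to 0.76), and Ccnd2, with 1 site, had a log2 ratio of -0.11 (-0.14 to -0.08). None of 14 genes of the microRNA pathway was counted as higher or lower, and Ago2, the slicing Argonaute, had a log2 ratio of -0.22 (-0.32 to -0.12).

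A few levels differed between the untransfected and the transfected knockout libraries. Saa3, an acute-phase apolipoprotein induced by inflammation, had 4.66 TPM in wild-type cells against 74.8 TPM in untransfected, 14.3 TPM in negative-control and 17.2 TPM in mimic-transfected knockout cells. The untransfected knockout library was the highest, with a log2 ratio of 3.90 (3.34 to 4.65) to the wild type. The negative-control and mimic libraries were also above the wild type, with log2 ratios of 1.39 and 1.76. Mmp3 had 72.2, 203, 91.8 and 101 TPM, again highest without transfection. Timp3 was above the wild type throughout, but its knockout libraries ranged from 709 to 1525 TPM. Zfp966, a zinc finger gene with near-identical copies, had 5.14, 10.8, 3.16 and 10.5 TPM, higher in 2 of the knockout libraries and lower in the negative-control library than in the wild type.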

How the data were processed

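Total RNA of 4 libraries was sequenced by BGI, and the submitters' processing notes name FastQC, HISAT and Bowtie2 and the builds GRCm38.p6 and mm10. Versions, the quantifier and any use of strand: not given in the sources used here. Per the file headers, the authors deposited read counts per gene, which hold decimals and are therefore treated as estimated counts, and TPM, in 1 table of 16416 genes, of which 16369 were matched to RefSeq and 26 had been turned into dates by a spreadsheet. The counts were scaled by TMM over the 4 libraries (edgeR 4.0.16 in R 4.3.3), and log2 ratios were taken from CPM with a prior count of 1. A gene was measured at 1 CPM or more in either library. Intervals are exact conditional binomial (Clopper-Pearson) intervals at 95% and cover counting error only. They do not cover differences between mice, cultures or preparations, since there was 1 library per group. They were run on simulated Poisson counts, the model under which they are exact, so that run does not test them on estimated counts. A gene at 0 in a library is given as a bound against a floor of 3 counts per library. The remaining steps used Python 3.11.15, pandas 2.3.3 and scipy 1.17.1.

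The gene lists were chosen with earlier results of these data known, so neither their choice nor their direction is independent of these data. Named are, per list, up to 6 members with the largest ratios, up to 6 of the most abundant and all members of lists of 12 or fewer; in addition the 15 largest ratios and the 15 most abundant called genes in each direction, among genes of at least 5 TPM for the former, the host genes and neighbours of the miR-26a hairpins, and genes linked to sex or strain. Exceptions are marked in the text, and a few genes that the rule names are not reported here. Seed sites were searched in the annotated 3' untranslated regions and motifs in RefSeq promoters. Alternatives were total-count, DESeq2 1.42.0 and TPM scaling, a filter at 5 CPM or none, a prior count of 5, protein-coding genes alone, and intervals at 99%.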

Additional observations from a re-analysis of the deposited data

How the results depend on the processing

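Every difference rests on 1 library a side, so neither leaving out a library nor any spread between cultures could be examined, and depth limits mainly the genes below 5 TPM. No paired analysis was possible because each group holds 1 library. The count of higher genes lay between 556 (5 CPM in either library) and 827 (no filter) beside 757, and that of lower genes between 556 (5 CPM) and 1044 (no filter) beside 896; with the filter at 5 CPM fewer genes were tested. With deposited TPM in place of scaled counts the counts were 589 and 1041, the share of called genes that were higher was 36.1% in place of 45.8%, and of 328 named genes 14 lost and 7 gained a call, with none changing direction. Those that lost it were C1qa, Ccne2, Cdc20, Crim1, Ctsh, Isg15, Itgb2, Mrc1, Mylk, Pcna, Psmb9, Sema3a, Tmsb4x and Tyrobp. With total counts Cxcl5, Igfbp3 and Mmp14 lost it, with DESeq2 size factors Isg15, with a prior count of 5 Agap2, Hoxb8, Isg15 and Psmb9, and with intervals at 99% Bglap2 and Hoxc13. Of 78 list medians 63 kept their side of 0 and moved by under 0.2 on the log2 scale with no filter, where 10 moved further and 5 changed sign. At 5 CPM this held for 65 of 75, with 7 moved and 3 changed, with TPM for 72, with 2 and 4, with a prior count of 5 for 76, with total counts for 77 and with DESeq2 size factors for 78. Skeletal muscle, MHC class II and HoxD genes have no median at 5 CPM, because too few of them remained. Among the medians counted as moved, those that kept their sign and moved by over 1.5 times were those of Wnt genes (-0.41 to -0.68) and interleukins (0.25 to 0.04) at 5 CPM, of ephrins and Eph receptors (-0.57 to -0.93) and HoxC genes (-0.42 to -0.64) with no filter, of cartilage genes (-0.54 to -1.04 at 5 CPM and -1.03 with no filter), of chemokine receptors (0.50 to 1.63 and 0.92) and of resident macrophage genes (0.45 to 0.74 and 0.15). The medians that changed sign were those of CDK inhibitors (-0.11 with TPM), complement components (-0.78 with no filter), osteoclast genes (0.01 with total counts) and BMP genes (0.01 with no filter). The CXC and CX3C chemokine median was -0.10 with TPM, -0.63 at 5 CPM and -1.01 with no filter, that of protease inhibitors -0.14, -0.31 and -0.31, and that of retinoic acid genes -0.12, -0.02 and -0.06. Among the 78 lists described 4 hold a gene at 0 in 1 library, and 0 of these medians changed with such genes at their bound.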
